A study of Mus musculus with 17 samples.

Results

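Mme, B3galnt1, Asic5, Cd1d2, Prune1, Rhoc, Fam171b and Tdg were 8 of the 23461 genes in a count table from mouse hepatocytes, picked by name because their RNA differed strongly between Yap/Taz knockout and wild type cells without injury. The question was whether that difference holds after liver injury too. The mice were males between 2 and 3 months of age, their hepatocytes were isolated by fluorescence-activated sorting, and RNA was sequenced from 5 wild type untreated, 4 Yap/Taz knockout untreated, 5 wild type CCl4 and 3 Yap/Taz knockout CCl4 samples. CCl4 (carbon tetrachloride, a toxin that hepatocytes convert into a reactive radical) was dosed 7 times at 1 ug/g with 3 days between doses, and cells were collected 3 days after the final one. The labels name neither the knockout alleles, the means of deletion, nor the strain, and do not say whether the genotypes were littermates.

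YAP and TAZ (the latter encoded by Wwtr1) are transcriptional coactivators that bind TEAD factors at DNA and are restrained by the Hippo kinases. In liver they are known for control of organ size, regeneration and bile duct identity. The 8 genes share no pathway: they encode a membrane peptidase (Mme), a glycosyltransferase (B3galnt1), an ion channel (Asic5), a lipid-presenting molecule (Cd1d2), a phosphatase (Prune1), a small GTPase (Rhoc), a membrane protein with little known function (Fam171b) and a DNA repair glycosylase (Tdg).

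In mm10, with positions from GENCODE, 6 of the 8 lie on chromosome 3, as Wwtr1 does (chr3:57455649-57575910). From the midpoint of Wwtr1 they are Mme at 5.8 Mb, B3galnt1 at 12.1 Mb, Asic5 at 24.5 Mb, Cd1d2 at 29.5 Mb, Prune1 at 37.8 Mb and Rhoc at 47.3 Mb, all toward higher coordinates. Fam171b is on chromosome 2 (chr2:83812636-83883486) and Tdg on chromosome 10 (chr10:82629828-82650799). Yap1 is on chromosome 9.

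After CCl4, 7 of the 8 still differed between genotypes in the same direction, against 11.8% of the 13721 genes tested. The CCl4 libraries are outside the contrast used to pick the genes, but the choice was made with earlier results of these data known. The test also shares its estimate of spread with the untreated libraries. Of the 7, 4 were higher in the knockout (7.62% of all genes) and 3 lower (4.21%). B3galnt1 and Fam171b reached the level of the filter on low counts in 0 of 10 wild type libraries and Cd1d2 in 3 of 10, so they entered the test mainly through the knockout libraries, in which they are high. Among the 5 members at that level in every wild type library, 4 were called (Mme, Prune1, Rhoc and Tdg). With a library left out, Mme lost its call in 10 of 17 fits and Prune1 in 12 of 17. Asic5 was not called: its excess in the knockout was measured without injury and not after it. Tdg and Cd1d2 have near-identical copies, and the copy of Tdg differed between genotypes in the opposite direction. Summed with that copy, Tdg was higher in the knockout (log2 difference 0.725). A gene is called here when its adjusted p (edgeR's quasi-likelihood test, Benjamini-Hochberg over all genes tested) is under 0.05, and levels are CPM (counts relative to the library's total after TMM scaling), not corrected for gene length. Log2 differences are knockout over wild type with a standard error.

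The sequences below show how few bases separate the members from those copies. They are the 90 coding bases, from GENCODE transcripts, in which each pair differs most, written 5′ to 3′, with the differing bases in capitals. Tdg is shown from coding base 1084 to 1173 beside Gm9855, annotated as a processed pseudogene at chr10:42054113-42055306 on the minus strand.
Tdg: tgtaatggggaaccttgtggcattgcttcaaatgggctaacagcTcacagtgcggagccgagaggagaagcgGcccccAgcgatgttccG
Gm9855: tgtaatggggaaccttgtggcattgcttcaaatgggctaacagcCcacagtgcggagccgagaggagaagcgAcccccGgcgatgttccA
Cd1d2 is shown from coding base 375 to 464 beside its neighbour Cd1d1, the gene for the main CD1d molecule of the mouse.
Cd1d2: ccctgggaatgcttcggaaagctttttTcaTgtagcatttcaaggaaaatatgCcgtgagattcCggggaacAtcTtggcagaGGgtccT
Cd1d1: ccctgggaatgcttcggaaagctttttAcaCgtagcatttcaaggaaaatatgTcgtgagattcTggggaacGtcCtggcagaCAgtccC
Over the 1191 aligned bases Tdg and Gm9855 were 99.2% identical, with 9 mismatches, 4 of them in the stretch shown. Cd1d2 and Cd1d1 were 96.7% identical over 1011 aligned columns, with 32 mismatches and 1 gap column, and 9 of the mismatches are in the stretch shown. Among the other members, a search of all GENCODE transcripts at 90% identity over at least 100 bases found a long match only for Prune1 (Gm5217, 93.0% over 1022 bases, not analysed here), while Mme matched many genes over at most 212 bases.

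Sequencing depth was 11266420 to 24775863 counts per sample (median 14786573). The deleted genes followed the labels: Wwtr1 averaged 12.8 and 1.87 CPM in wild type and knockout without CCl4 and 19.6 and 4.76 CPM with it, and Yap1 51.3 and 3.50 CPM, then 55.2 and 1.37 CPM, with no overlap between genotypes. Markers of hepatocytes summed to between 57100 and 140000 CPM in every library. Marker sums, here and below, are relative to the library's total without TMM scaling. Macrophage markers summed to 0.71 to 10.3 CPM in wild type and 0.22 to 7.35 CPM in knockout untreated libraries, against 8.92 to 77.7 and 43.5 to 1750 CPM after CCl4, and all 6 were called higher in the CCl4 knockout. Endothelial markers summed to 22.5 to 118 and 79.8 to 358 CPM after CCl4 (1 of 6 called), and stellate and fibroblast markers to 18.7 to 76.3 and 87.9 to 155 CPM (0 of 7 called). None of the 3 lists had a member called without CCl4, and their part in the differences described here was not tested. Knockout CCl4 replicate 3, which held the highest macrophage and endothelial sums, and wild type untreated replicate 5 had 34.3% and 30.7% of their counts from mitochondrially encoded genes. In such bulk samples, fewer cells with a transcript and less of it per cell cannot be told apart. Nothing in the labels says that replicates are separate animals, so p values measure the spread between these samples.

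**Figure D1:**
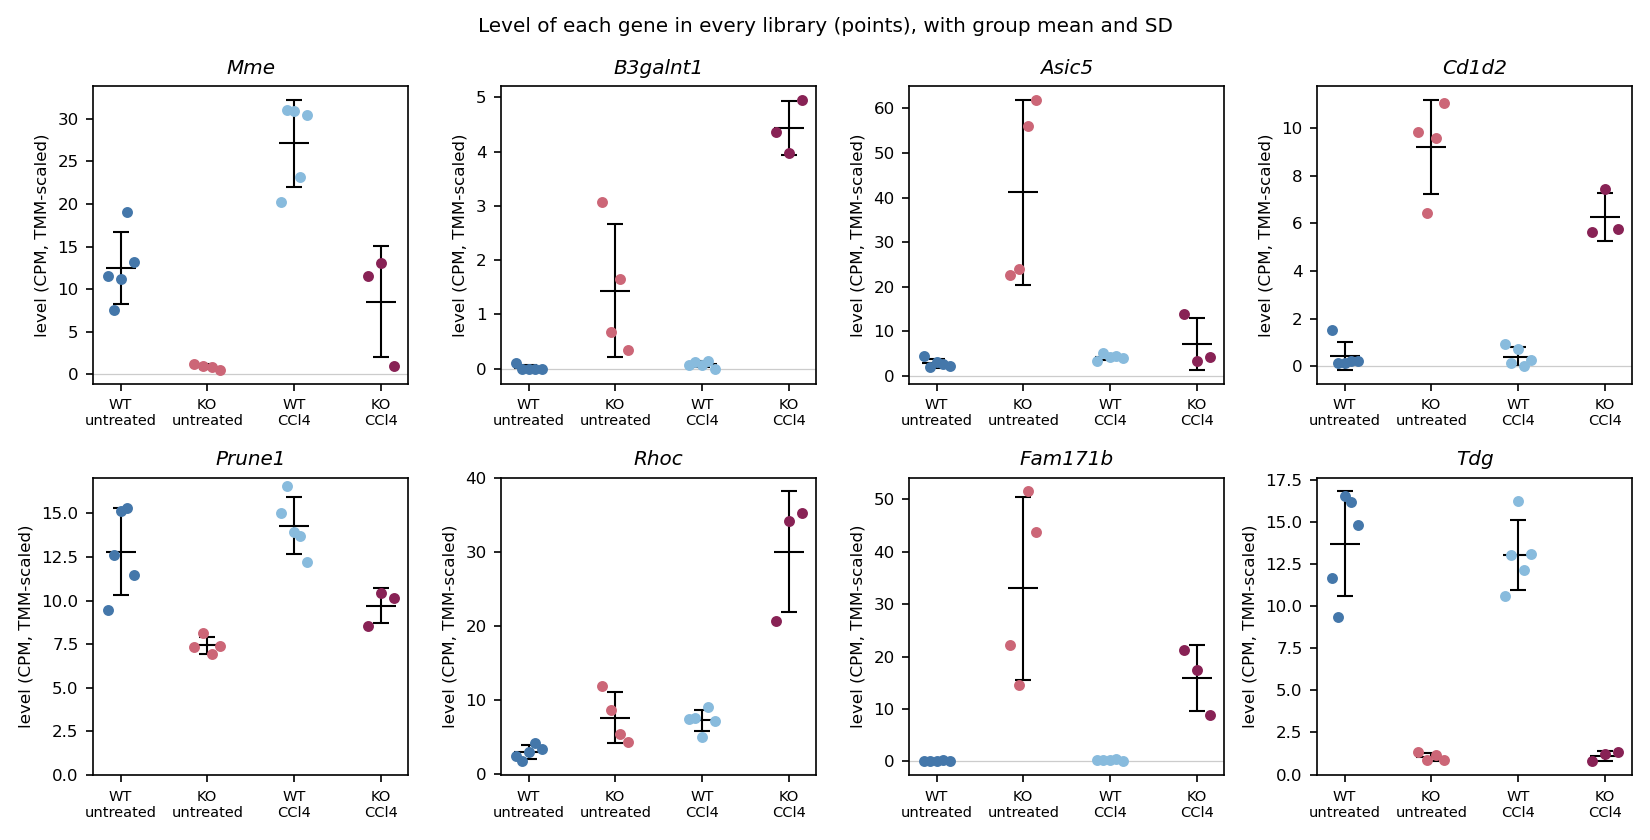
Level of each of the 8 genes (CPM, linear axis) in every library (points), with group mean and SD (bars), for wild type (WT) and Yap/Taz knockout (KO), untreated and after CCl4. Genotypes do not overlap in either treatment except for Asic5 after CCl4, where wild type spans 3.30 to 5.04 and the knockout 3.36 to 13.8 CPM.

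Fam171b had the widest separation of the set. In untreated wild type it was at 0, 0, 0.0628, 0.221 and 0.0723 CPM (5 counts in all), and in the untreated knockout at 22.3, 14.6, 51.6 and 43.8 CPM (2140 counts). The ratio of summed, depth-scaled counts was 432, with a 95% counting interval of 185 to 1330. After CCl4, wild type libraries stood at 0.249, 0.189, 0.214, 0.390 and 0.0387 CPM and knockout libraries at 21.4, 17.4 and 8.90 CPM. Every knockout library was far above every wild type library in both treatments. The log2 difference was 8.63 ± 0.63 without injury, a description since the gene was picked on it, and 6.19 ± 0.54 after CCl4 (edgeR adjusted p = 6.87e-06). The change of the difference from untreated to CCl4 was -2.44 ± 0.95. Such changes include the untreated values on which the members were picked, so they are given throughout as sizes with no test.

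B3galnt1 adds N-acetylgalactosamine to globotriaosylceramide to make globoside, the last step to the core globo-series glycolipid. Untreated wild type libraries were at 0.101, 0, 0, 0 and 0 CPM, a total of 1 count, and untreated knockout libraries at 3.07, 0.685, 1.65 and 0.335 CPM, a total of 112. After CCl4 the wild type was at 0.0623, 0.126, 0.0714, 0.146 and 0 CPM (8 counts) and the knockout at 4.37, 3.97 and 4.96 CPM (247 counts). The transcript was thus at or near 0 in wild type and low but counted in each knockout library. Ratios of depth-scaled counts were 113 (95% counting interval 19.9 to 4510) without and 57.2 (28.6 to 134) with CCl4, and the latter comparison gave a log2 difference of 5.70 ± 0.80 (edgeR adjusted p = 0.000566). The change between treatments was -0.29, and it was above 0 in limma voom (1.02) and in edgeR without knockout untreated replicate 1 (0.40) or wild type CCl4 replicate 4 (0.04).

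Cd1d2 belongs to the CD1d molecules that show lipids to natural killer T cells, and GENCODE gives it as a polymorphic pseudogene. Wild type libraries were at 1.51, 0.167, 0.126, 0.221 and 0.217 CPM untreated and at 0.935, 0.126, 0.714, 0 and 0.271 CPM after CCl4. Knockout libraries were at 9.84, 6.42, 9.56 and 11.1 CPM untreated and at 5.62, 7.44 and 5.75 CPM after CCl4. The groups did not overlap in either treatment, and the CCl4 difference was 3.92 ± 0.76 (edgeR adjusted p = 0.00397), with a change between treatments of -0.52 ± 1.07. Its near copy Cd1d1 was far more abundant and differed little: 166 ± 21.3 (SD, n = 5) and 152 ± 33.2 CPM (n = 4) untreated, and 140 ± 28.2 (n = 5) and 105 ± 12.4 CPM (n = 3) after CCl4, for wild type and knockout. Cd1d1 took 99.2% to 100% of the pair's level in wild type libraries and 92.7% to 95.2% in knockout libraries. The sum of the pair is therefore close to Cd1d1 alone, whose CCl4 difference was -0.41 ± 0.19 (edgeR adjusted p = 0.184), and bears little on Cd1d2.

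Tdg removes thymine and oxidised methylcytosine from DNA, a step in base excision repair and in active demethylation. Untreated wild type libraries were at 11.7, 9.34, 16.6, 16.2 and 14.8 CPM and untreated knockout libraries at 1.32, 0.856, 1.15 and 0.838 CPM. After CCl4 the values were 10.6, 13.0, 16.3, 12.1 and 13.1 CPM in wild type and 0.777, 1.25 and 1.34 CPM in the knockout. The knockout was lower in every library, by -3.69 ± 0.25 untreated and -3.53 ± 0.28 after CCl4 (edgeR adjusted p = 2.37e-06), and the change between treatments was 0.16 ± 0.34. Its exons share 367 bases with those of Glt8d2 on the other strand, which averaged 0.441 and 0.176 CPM untreated and 0.321 and 0.169 CPM after CCl4. Gm9855 did the opposite of Tdg: it was at 0 to 2.00 CPM in untreated and 0 to 0.503 CPM in CCl4 wild type libraries, and at 11.3 to 18.6 and 14.7 to 30.2 CPM in the knockout libraries. Its own CCl4 difference was 7.38 ± 1.12 (edgeR adjusted p = 0.000886).

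Summed over Tdg and Gm9855, the level was 14.2 ± 2.54 CPM (SD, n = 5) in wild type and 16.1 ± 3.23 CPM (n = 4) in knockout without CCl4, ranges of 11.3 to 16.6 and 12.2 to 19.7 CPM that overlap. After CCl4 the sum was 13.1 ± 2.09 CPM (n = 5) and 21.7 ± 8.48 CPM (n = 3), with ranges of 10.6 to 16.3 and 16.0 to 31.4 CPM. Gm9855 held 0% to 17.6% of the sum in wild type and 91.4% to 96.0% in knockout libraries. A fit with the counts summed gave a log2 difference of 0.725 ± 0.227 after CCl4 (edgeR adjusted p = 0.0477), higher in the knockout where Tdg alone was lower. How reads that match both loci were divided is not given in the sources used here, and its part in the difference of Tdg was not tested. Gm9855, Cd1d1 and the sums were chosen after values had been seen, and 2 further Tdg copies, Gm5597 and Tdg-ps, were not analysed here.

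**Figure D2:**
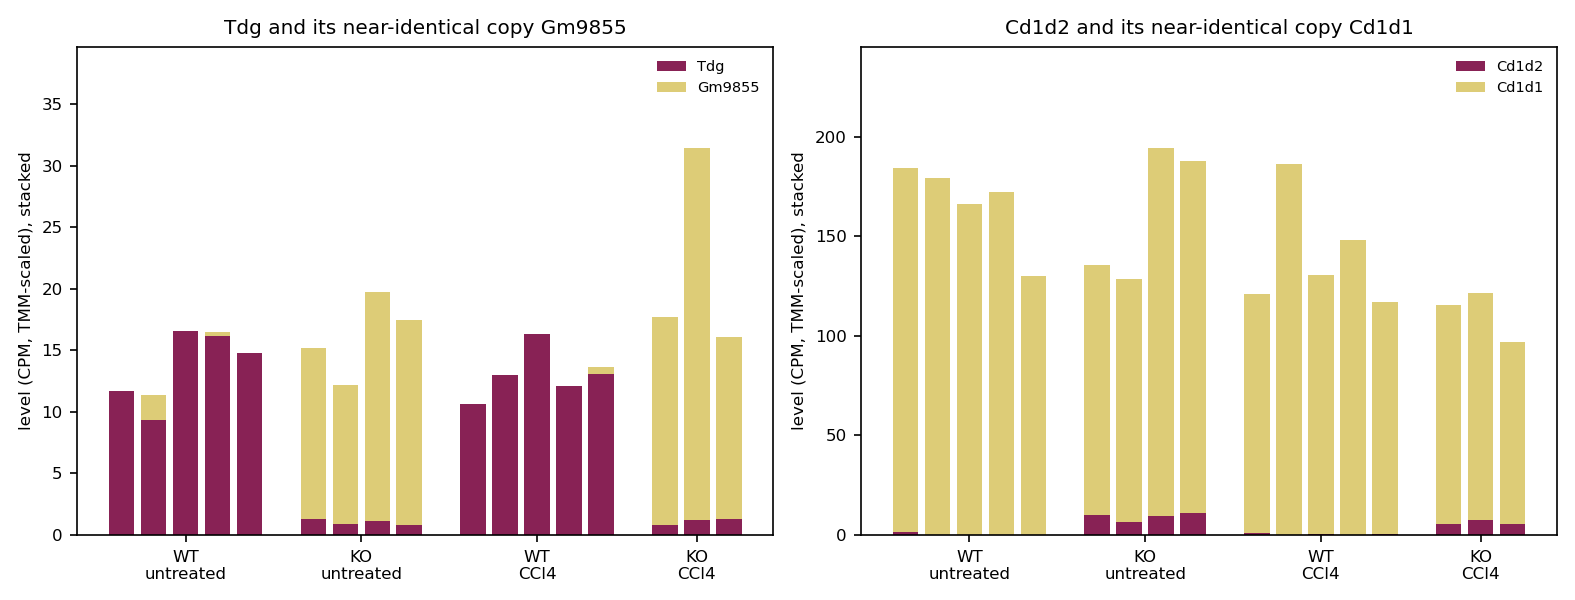
Stacked level (CPM, linear axis from 0) of Tdg with Gm9855 and of Cd1d2 with Cd1d1, one bar per library in replicate order. The share of Gm9855 is 0% to 17.6% in wild type and 91.4% to 96.0% in knockout bars, while Cd1d2 stays a small part of its pair throughout.

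Mme encodes neprilysin, a zinc peptidase of the cell surface that cleaves small peptides. Untreated wild type libraries were at 11.5, 7.59, 11.2, 19.1 and 13.2 CPM, and untreated knockout libraries at 1.19, 1.03, 0.879 and 0.503 CPM. CCl4 libraries were at 20.2, 31.0, 31.0, 23.2 and 30.4 CPM in wild type and at 11.5, 13.1 and 1.02 CPM in the knockout. Both genotypes were higher with CCl4 than without, except that knockout CCl4 replicate 3 stayed at the untreated knockout level. The genotype difference was -3.76 ± 0.54 untreated and -1.65 ± 0.51 after CCl4 (95% interval -2.73 to -0.58, edgeR adjusted p = 0.0440). That call was close to the threshold. Without knockout CCl4 replicate 3 the difference was -1.14 (edgeR adjusted p = 0.0603), and it also passed the threshold no longer when wild type CCl4 replicate 1, 2, 3, 4 or 5, knockout untreated replicate 2 or 3, or wild type untreated replicate 1 or 3 was left out (edgeR adjusted p 0.0517 to 0.0840 over these 10 fits). The change of the difference between treatments was 2.11 ± 0.69, and 2.62 without knockout CCl4 replicate 3. Within genotypes, CCl4 libraries differed from untreated ones by 1.12 ± 0.42 in wild type and 3.23 ± 0.56 in the knockout (log2, CCl4 over untreated), which are not tested because they share the untreated libraries.

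Asic5 encodes a bile acid-sensitive ion channel of the acid-sensing family. Its untreated values were 4.44, 1.92, 3.02, 2.65 and 2.10 CPM in wild type and 22.7, 24.0, 56.0 and 62.0 CPM in the knockout. With CCl4 they were 3.30, 5.04, 4.14, 4.39 and 3.95 CPM in wild type and 13.8, 3.36 and 4.18 CPM in the knockout, so that knockout replicate 1 alone lay above the wild type range. The genotype difference was 3.87 ± 0.43 untreated and 0.77 ± 0.43 after CCl4 (95% interval -0.14 to 1.67, edgeR adjusted p = 0.276). Without knockout CCl4 replicate 1 it was -0.16 (edgeR adjusted p = 0.840). The change between treatments was -3.10 ± 0.62, and -4.03 to -2.76 with each library left out in turn. Within the knockout, CCl4 libraries were lower than untreated ones by -2.53 ± 0.48, and within wild type the value was 0.57 ± 0.39.

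Rhoc encodes a small GTPase that acts on the actin skeleton and cell movement. Untreated levels were 2.52, 1.75, 3.02, 4.20 and 3.47 CPM in wild type and 12.0, 8.73, 5.50 and 4.44 CPM in the knockout, the lowest knockout library just above the highest wild type one. After CCl4 they were 7.54, 7.63, 5.03, 9.07 and 7.20 CPM in wild type and 20.7, 34.3 and 35.4 CPM in the knockout. The gap was wider after CCl4, at 2.05 ± 0.31 (95% interval 1.39 to 2.70, edgeR adjusted p = 0.000851) against 1.35 ± 0.30, a change of 0.69 ± 0.44. Rhoc was also higher with CCl4 within each genotype, by 1.28 ± 0.29 in wild type and 1.97 ± 0.33 in the knockout. Macrophage, endothelial and stellate marker sums averaged higher in the CCl4 knockout too. Macrophage and endothelial sums overlapped between genotypes in both treatments, and stellate sums only without CCl4. The part of such cells in the Rhoc difference was not tested. Leaving out each library in turn kept the CCl4 difference between 1.92 and 2.25, called each time.

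Prune1 hydrolyses short-chain polyphosphate and cyclic nucleotides, and it had the smallest difference of the set. Untreated libraries were at 9.48, 12.6, 15.1, 15.3 and 11.5 CPM in wild type and 7.33, 8.13, 6.93 and 7.37 CPM in the knockout, and CCl4 libraries at 15, 16.6, 13.9, 13.7 and 12.2 CPM and 8.55, 10.4 and 10.2 CPM. No knockout library reached the lowest wild type library of its treatment. The log2 difference was -0.79 ± 0.16 untreated and -0.55 ± 0.17 after CCl4 (95% interval -0.92 to -0.19, edgeR adjusted p = 0.0480), with a change of 0.23 ± 0.23. Its call was lost in 12 of the 17 fits with a library left out, where the difference was -0.61 to -0.48 and the edgeR adjusted p 0.0519 to 0.137: those without any of the 3 knockout CCl4, any of the 4 knockout untreated, wild type CCl4 replicate 1, 2, 3 or 4, or wild type untreated replicate 2 libraries. The annotated gene spans of Prune1 and of Mindy1, on the other strand, overlap by 732 bases. Whether their exons overlap was not examined. The strand setting of the counting is not given in the sources used here. Mindy1 differed by -0.51 ± 0.17 after CCl4 (edgeR adjusted p = 0.0623).

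**Figure D3:**
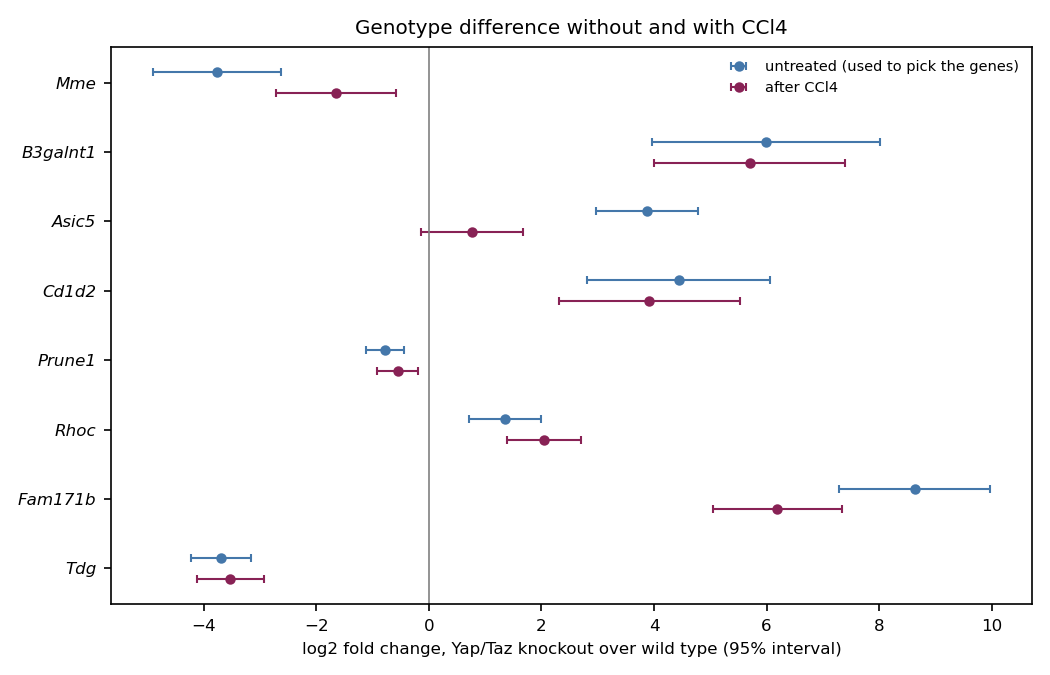
Log2 fold change of knockout over wild type (points) with 95% interval (bars) for each gene, untreated and after CCl4. Intervals after CCl4 exclude 0 for all but Asic5 (-0.14 to 1.67); the untreated values picked the genes and are a description.

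After CCl4 the groups did not overlap for 7 of the 8 genes, against 18.1% of genes tested, with 4 above (10.1% of all genes) and 3 below (7.97%). Without CCl4, which was used for the choice, all 8 were apart, against 3.64% of genes. For comparison among genes with an untreated genotype call (128 of 13721, or 0.933%), 80 of the 120 that are not members were called again in the same direction after CCl4 (66.7%), and 2 were called in the opposite one. The median size of the log2 difference in those 120 was 2.31 untreated and 1.85 after CCl4, and in the members 3.82 and 2.79. By edgeR the change between treatments was called for 1 of the 8 members, Asic5, against 1.09% of all genes, and nothing is read from this count because the members were picked on part of that contrast. Of the 7 members called after CCl4, 5 (B3galnt1, Cd1d2, Rhoc, Fam171b and Tdg) kept the call in each left-out fit and under every other scaling, filter and tool tried, with the counts as deposited. Of these, B3galnt1, Cd1d2 and Fam171b entered the test mainly through the knockout libraries, in which they are high. Their calls, and their part in the counts of members above, are descriptions. Without the 2 libraries rich in mitochondrial counts 5 of the 8 were called, Mme (-1.14, edgeR adjusted p = 0.0601) and Prune1 (-0.58, edgeR adjusted p = 0.130) no longer, and the change of Asic5 between treatments was -2.75. The rule behind the choice gives no minimum difference: by size, Fam171b ranked 15 among the 128 untreated calls, and Rhoc and Prune1 only 102 and 121.

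The genes were picked under a name that places them near the targeted alleles. Chromosome 3 had the highest share of untreated genotype calls of any chromosome, 15 of 652 tested genes (2.30%, against 0.933% overall), among them the 6 members and Wwtr1. The members among them were picked on this contrast. Chromosomes 2, 1 and 14 had 1.78%, 1.77% and 1.75%. Within 50 Mb of Wwtr1, itself not counted, 10 of 447 genes were called untreated (2.24%) and 54 of 447 after CCl4 (12.1%). No member is within 5 Mb of Wwtr1, where 0 of 35 tested genes were called untreated and 3 of 35 (8.57%) after CCl4. Without the members, which were picked for their untreated difference and so cannot be removed without lowering the share, 4 of 441 genes within 50 Mb (0.907%) were called untreated and 49 of 441 (11.1%) after CCl4. Whether distance from the targeted allele has a part in the members' differences was not tested. Around Yap1, 4 of 303 genes within 50 Mb (1.32%) were called untreated and 26 of 303 (8.58%) after CCl4. On chromosome 3 as a whole, 11 of 652 genes were called in both treatments in the same direction (1.69%, against 0.634% of all genes). Those other than members and Wwtr1 were Rps3a1, Adh6-ps1, Rpl34, Hsd3b3 and Gm15264. Calls in both treatments in the same direction were 15 of 1126 on chromosome 2 (1.33%), 12 of 790 on chromosome 1 and 7 of 458 on chromosome 14.

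**Figure D4:**
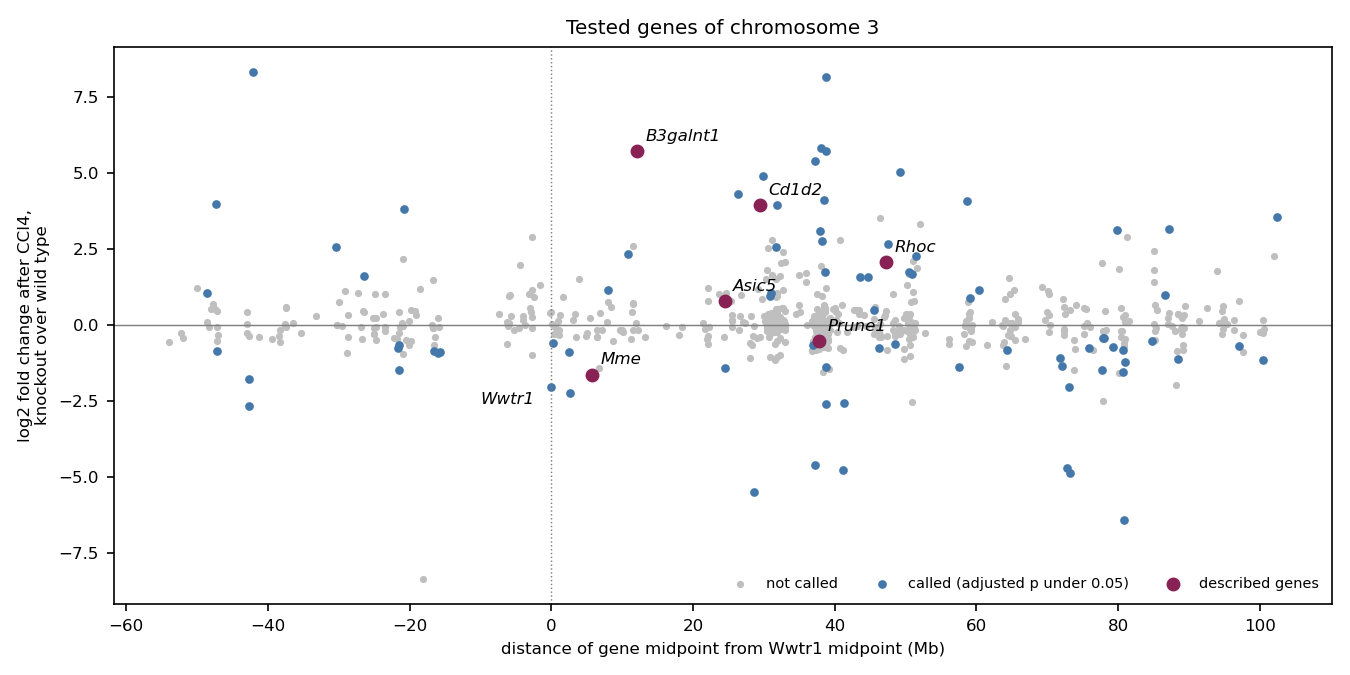
Log2 difference after CCl4 (knockout over wild type) of every tested gene of chromosome 3 by distance of its midpoint from that of Wwtr1 (Mb). Genes called at an adjusted p under 0.05 are spread along the chromosome, and the members lie at 5.8 to 47.3 Mb, with called and uncalled genes around them.

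The tested genes on each side of the members, 9.5 to 608.3 kb away between midpoints, numbered 16. Of these, 1 was called untreated (6.25%, against 0.933% of all genes) and 2 after CCl4 (12.5%, against 11.8%). Tdo2, which starts tryptophan breakdown and adjoins Asic5, averaged 1398 and 1434 CPM untreated and 1322 and 488.5 CPM after CCl4 in wild type and knockout (-1.44 ± 0.28, edgeR adjusted p = 0.00378). Gm13698, next to Fam171b, had 0 counts in all wild type libraries and 391 and 334 counts in the untreated and CCl4 knockout groups, at least 132-fold and 206-fold higher when set against a floor of 3 counts over the group. It is 1 of 6 gene models with identical counts in every library, so that they are not independent. In a window of 7 Mb on each side of Fam171b, chosen after values were seen, 10 of 51 tested genes were called in both treatments (19.6%, against 0.634% of all genes in the same direction), or 5 of 46 with the identical models counted once. Both counts include Fam171b, a member picked on its untreated difference. Olfr1033 was lower in the knockout (log2 differences -7.37 untreated and -9.93 after CCl4), and the other called genes were higher. One of these was Cwc22, a splicing factor, at 9.86 and 126 CPM untreated and 10.4 and 146 CPM after CCl4 in wild type and knockout (log2 differences 3.67 and 3.81). The gene span of Gm13727, also called, overlaps that of Cwc22.

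Among non-members within 50 Mb of Wwtr1, those with the smallest adjusted p after CCl4 were the ribosomal protein gene Rps3a1 (-5.50, adjusted p = 9.69e-07), the steroid dehydrogenase Hsd3b3 (-2.57), Mccc1 of leucine breakdown (-1.50), Hsd3b5 (-4.80), the innate receptor Tlr2 (4.29), the lysosomal protease Ctss (5.82), Selenbp2 (-4.63) and Skil (1.61), all by edgeR. Tlr2 and Ctss are abundant in macrophages. Macrophage marker sums averaged higher in the CCl4 knockout, and were highest in replicate 3. The part of macrophages in these differences was not tested.

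Rps3a1 was also the tested gene whose log2 level was most like that of Tdg over the 17 libraries (Pearson r = 0.978, given without a p). It averaged 225 and 3.30 CPM untreated and 212 and 4.73 CPM after CCl4 in wild type and knockout. Its copies Rps3a2 and Rps3a3, on other chromosomes, were at 0.367 and 0.162 CPM in untreated wild type and 136 and 83.1 CPM in the untreated knockout. The 3 summed to 225 ± 13.2 CPM (SD, n = 5) and 222 ± 18.5 CPM (n = 4) untreated, and to 212 ± 36.2 CPM (n = 5) and 231 ± 97.2 CPM (n = 3) after CCl4. As with Tdg and Gm9855, the gene was low and its copies high in the knockout; these copies were looked at after values had been seen. The closest patterns to the other members were Arsb for Mme (r = 0.980), Gm14094 for B3galnt1 (0.898), Lhx6 for Asic5 (0.911), Ugt1a8 for Cd1d2 (0.941), Slc35f2 for Prune1 (0.881), Apoa4 for Rhoc (0.937) and Eif3s6-ps2 for Fam171b (0.978), over the same 17 libraries, which share the group differences used to pick the members. Between members, Fam171b and Tdg were the most opposed (-0.962).

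Genes that work with the members, or belong to their families, gave no call in any of the 8 lists without CCl4. After CCl4, when 7.62% of all genes were called higher and 4.21% lower, 7 of 26 tested small GTPases related to Rhoc and their partners rose in the knockout, among them Rac2 (5.01 ± 0.86), Rhob (2.23 ± 0.50) and Arhgdia (1.32 ± 0.23), with a list median of 0.43 against 0.039 over all genes. Rhoa, the closest relative of Rhoc with Rhob, was at 0.02 ± 0.16 (edgeR adjusted p = 0.956). Rac2 is a leukocyte GTPase. Macrophage markers summed to 43.5, 149 and 1750 CPM in knockout CCl4 replicates 1, 2 and 3. Wild type CCl4 libraries held 8.92 to 77.7 CPM. The part of macrophages in the Rac2 difference was not tested. Of 25 base excision repair and demethylation genes, 5 rose and none fell, including the flap nuclease Fen1 (1.55 ± 0.35), Dnmt1 (0.91 ± 0.22) and Gadd45b (2.96 ± 0.86), with a median of 0.38. In glycolipid synthesis and breakdown B4galt6, which makes lactosylceramide, rose (3.49 ± 0.74), as did Hexa, which degrades gangliosides in lysosomes (1.39 ± 0.32). For CD1 lipid presentation 2 of 9 rose, the lysosomal lipid handlers Psap (1.34 ± 0.31) and Gla (1.90 ± 0.47). In the channel list Scnn1a, an epithelial sodium channel subunit, fell by 1.56 on the log2 scale (1 of 2), while Asic1 was at -0.02. Of 7 polyphosphate and nucleotide phosphatases 2 fell (Ppa2 -0.77 ± 0.20, Nudt4 -0.66 ± 0.20), and of 8 membrane peptidases Ace rose (2.50 ± 0.78) and Enpep fell (-1.11 ± 0.28). Neither Fam171a1 nor Fam171a2 was called (1.82 ± 0.79 and 2.34 ± 0.94). These lists were not tested as sets.

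Upstream windows of 250 bases before the annotated start were found in RefSeq (GRCm38.p6) for 6 of the 8 members, in 8 windows. The letters GGAATG, a core of TEAD sites, or their reverse complement CATTCC occurred in 1 window, one of Mme, against 12.6% of 32851 windows of the same length. This is a match of letters, with no binding measured. All 250 bases of that Mme window lay in GENCODE exons. Another Mme window and those of Asic5, Rhoc and Tdg overlapped exons by 105, 131, 146 and 10 bases.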

How the data were processed

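The values are raw counts in 1 table that the authors deposited, with a column for each of the 17 samples. The submitters' processing notes name STAR 2.4.1d and the mm10 build. How reads were counted, with which strand setting and gene annotation, is not given in the sources used here. Per the labels, replicate numbers pair no samples, and no pairing was used.

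Counts were fitted in edgeR 4.0.16 over all 17 samples with a mean per group, TMM scaling and filterByExpr (minimum count 10, minimum total 15), leaving 13721 genes, with a robust quasi-likelihood F test and Benjamini-Hochberg adjustment. The same steps were tested on simulated data. Alternatives were other scalings and filters, DESeq2 1.42.0, limma voom 3.58.1, the replicate number as a block, the CCl4 samples alone, each sample left out, and, chosen after seeing the data, the 2 libraries with over 30% mitochondrial counts left out and near copies summed.

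Members and gene lists were chosen with earlier results of these data known. Named were the members, Wwtr1, Yap1, close paralogs, the nearest tested gene on each side, the 8 genes within 50 Mb of Wwtr1 with the smallest adjusted p, the gene most like each member, and up to 3 genes per list; 1 gene of the glycolipid list, and that list's count, are not reported here. Annotation was GENCODE M21. Intervals of count ratios are exact and cover counting error only.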

Additional observations from a re-analysis of the deposited data

Results flagged for a closer look

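Asic5 had a genotype difference of unlike size in the 2 treatments. The log2 change from untreated to CCl4 was -3.10, and -4.03 to -2.76 with each library left out in turn. It is given as a size with no test, because the contrast includes the untreated values on which the gene was picked. Wild type untreated replicate 1 stood apart from the other 4 libraries of its group for B3galnt1 (0.101 CPM, against 0 in the others) and for Cd1d2 (1.51 CPM, against 0.126 to 0.221). The B3galnt1 value is a single count. Of 24 groups of values checked for such a library, chance gives about 1 in 20.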

How the results depend on the processing

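After CCl4, 7 members were called as reported, and 5 to 7 under the other settings and left-out libraries. The change between treatments includes the values used to pick the genes, so no count of calls is given for it. For Asic5 its size was -3.35 to -2.75 under the other settings. Among all tested genes 1622 were called after CCl4, with 867 under the replicate block, 555 without the 2 libraries over 30% mitochondrial and 418 to 2216 with libraries left out (418 without knockout CCl4 replicate 3, 1026 without wild type CCl4 replicate 2). Within 50 Mb of Wwtr1 the count of 49 non-members became 29 under the block, 22 without the 2 libraries and 17 to 71 with libraries left out, 17 without knockout CCl4 replicate 3. Some signs turned: the change between treatments of B3galnt1 was 1.02 in limma voom, 0.40 without knockout untreated replicate 1 and 0.04 without wild type CCl4 replicate 4 (-1.997 to 0.404 over all left-out libraries), and that of Tdg was -0.055 with library totals alone. With near copies summed, the CCl4 difference was -0.335 for Cd1d2 (a sum made up almost wholly of Cd1d1) and 0.725 for Tdg, and Asic5 was at -0.16 without knockout CCl4 replicate 1 (-0.16 to 1.115 over all left-out libraries). The cause was not tested. The replicate block (5 members called) pairs samples by replicate number, a pairing that the labels do not state. Of 22 same-numbered pairs 4 had a correlation of deviations over 0.1 (mean -0.024). With library totals alone the higher share of CCl4 calls was 70.2%, with no filter 71.6% and with the CCl4 samples alone 71.0%, against 64.4%, and totals alone put the median gene at 0.14 untreated. Mme lost its CCl4 call in 5 of 9 other settings and Prune1 in 6 of 9. Depth limits B3galnt1, Fam171b and Cd1d2 in wild type, where counts are near 0.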
